A study of Mus musculus with 16 samples.

Results

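The interferon regulatory factors (IRFs) are transcription factors that share a DNA-binding domain and bind repeats of the letters GAAA. The 6 genes described here, Irf1, Irf2, Irf3, Irf4, Irf5 and Irf8, were chosen by gene name from the messenger RNA table, with the counts of all transcripts of a gene ID added up. They were 6 of 27150 genes in that table, and all 6 were among the 17535 genes with enough counts to be tested. The RNA came from epididymal fat, the visceral fat pad beside the epididymis, of male C57BL/6J mice (C57BL/6 in the strain label) bought at 6 weeks of age and about 22 g. The groups were a high-fat diet (HFD, 60% fat, fed for 8 weeks before treatment) with metformin for 6 weeks, the same diet with resveratrol for 6 weeks, the HFD without a drug, and a normal diet, with 4 libraries each. Metformin is a biguanide that lowers blood glucose, and resveratrol is a plant polyphenol. No group had a drug on the normal diet, so the drugs were set against the HFD group, and beside the normal diet group where stated. The same HFD libraries enter the diet comparison and both drug comparisons. A gene high in them tends to be up in the first and down in the others, so such opposite signs are not separate results.

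IRF3 and IRF5 are activated by phosphorylation downstream of receptors that sense microbial nucleic acids and lipids, IRF1 is itself made in response to interferon, and IRF2 competes with IRF1 at its sites. IRF8 sets the development of monocytes, macrophages and dendritic cells, and IRF5 is known for the inflammatory state of macrophages in fat. IRF4 is best known from B cells, plasma cells and dendritic cells, but fat cells make it too: in mouse fat cells it is induced by fasting, raises the lipases of lipolysis and, with PGC-1alpha, drives the thermogenic programme.

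Levels are in CPM, which sets a count against the total count of its library, with libraries scaled by trimmed mean of M-values (TMM) factors, and a gene was called where the adjusted p of edgeR's quasi-likelihood test was under 0.05 across all genes tested. The libraries held 13350585 to 20531032 messenger RNA counts. A library was left out when Crisp1, an epididymis gene, exceeded 1000 CPM: in resveratrol replicate 4 it reached 12100 CPM, against 15.2 to 16.3 CPM in the metformin libraries and at most 0.178 CPM in the other 11, so 15 libraries entered the fit. The count columns of 1 HFD and 1 metformin library carried a code found in no sample title, and these 2 libraries go here by the names HFD unmatched and metformin unmatched. In the 15 libraries, 8 fat cell markers summed to 13075 to 30679 CPM. The protocol texts also speak of retina and skeletal muscle, whose marker sums were at most 2.53 and 119 CPM. In bulk tissue, fewer cells of a type and less RNA per cell cannot be told apart.

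The promoters of 3 members carried an interferon-gamma-activated site (GAS), an element with the letters TTCNNNGAA. These sites are shown because they separate the 6 genes by a feature that no count was used to find. The RefSeq promoters (GRCm38.p6, from 250 bases before to 50 bases after the start site, forward strand) were searched for TTCNNNGAA, which reads the same on both strands, and 8.3% of 32851 promoters of this length held it. The site lay 90 bases before the start site of Irf1, 224 before that of Irf2, and 171 and 153 before that of Irf8. In the stretches below, the site is in capitals.
Irf1, chr11:53769914-53769942: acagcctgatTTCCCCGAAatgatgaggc
Irf2, chr8:46739511-46739539: aaattgacttTTCCGAGAAatgatgaaag
Irf8, chr8:120736177-120736205: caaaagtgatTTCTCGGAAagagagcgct
Irf8, chr8:120736195-120736223: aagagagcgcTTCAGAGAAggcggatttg
The promoters of Irf3, Irf4 and Irf5 held no match, and neither did a further RefSeq start of Irf1 and of Irf8. Of the 3 other motifs searched on both strands, GAAANNGAA (8.56% of promoters) and GGAANNGAA (8.24%), an element of IRFs with ETS factors, each matched the promoter of Irf2 and none of the others. The matches overlap by 3 bases in tggGGAAGTGAAAATGAAattgactt, the first letters of that promoter, where capitals mark both. GTAAACA (3.65% of promoters), a FOXO motif searched because FOXO1 activates Irf4 in fasted mouse fat cells, matched no member.

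Irf4 was far lower in the fat of HFD mice. It had 23, 22.5 and 20.3 CPM in HFD libraries 1, 2 and 3 and 17.3 CPM in HFD unmatched, against 121, 243, 217 and 89.9 CPM in normal diet libraries 1 to 4. The groups did not overlap, and the lowest normal diet library was well above the highest HFD library. The mean was 20.8 ± 2.58 CPM in HFD fat and 168 ± 73.9 CPM in normal diet fat (SD, n = 4 each), and the log2 fold change was -3.01 (SE 0.47, edgeR adjusted p = 0.00115), 0.124 times the normal diet level.

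Irf5 and Irf8, the pair with known roles in macrophages, were higher in HFD fat. Irf5 had 61.4, 69.7 and 43.2 CPM in HFD libraries 1 to 3 and 26.8 CPM in HFD unmatched, against 10.2, 15.8, 34.4 and 22.7 CPM in normal diet libraries 1 to 4. HFD unmatched lay inside the normal diet range, and the other HFD libraries lay above it. Irf5 had a log2 fold change of 1.27 (SE 0.34, edgeR adjusted p = 0.0168), 2.42 times the normal diet level. Irf8 had 70.4, 54.7 and 91.2 CPM in HFD libraries 1 to 3 and 44.4 CPM in HFD unmatched, against 28.1, 34.3, 40.9 and 28.3 CPM in normal diet libraries 1 to 4. All 4 HFD libraries were above all 4 normal diet libraries, with HFD unmatched nearest to them. The log2 fold change was 0.99 (SE 0.20, edgeR adjusted p = 0.00452), 1.98 times the normal diet level.

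The other 3 members were not called between the diets. Irf1 averaged 35.8 ± 11 CPM in HFD fat and 33.1 ± 4.95 CPM in normal diet fat, with a log2 difference of 0.11 and an interval of 2 SE from -0.31 to 0.53. Irf3 averaged 36.5 ± 3.55 CPM in HFD fat and 38.3 ± 1.44 CPM in normal diet fat, with a log2 difference between -0.25 and 0.11. Irf2 had 51.2, 59.4 and 52.5 CPM in HFD libraries 1 to 3 and 51.7 CPM in HFD unmatched, against 72.9, 59.1, 72.0 and 61.3 CPM in normal diet libraries 1 to 4. Only HFD 2 reached into the normal diet range of Irf2, whose log2 fold change was -0.30 (SE 0.12, edgeR adjusted p = 0.095). DESeq2 called it (adjusted p = 0.0468), as did edgeR without metformin 1 (0.037) and with the ciliated covariate (0.00987).

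In this comparison 3 of the 6 members were called, 2 up and 1 down, and 23.1% of all tested genes were called, 13.8% up and 9.34% down. The median log2 fold change was 0.02 over the 6 members and -0.04 over all genes tested. The calls of Irf4 and Irf8 were kept with each library left out in turn. The call of Irf5 was lost without HFD 1 (adjusted p = 0.05 after rounding, above the threshold), without HFD 2 (0.0524), without normal diet 2 (0.05, likewise) and with all 16 libraries (0.0749).

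**Figure D1:**
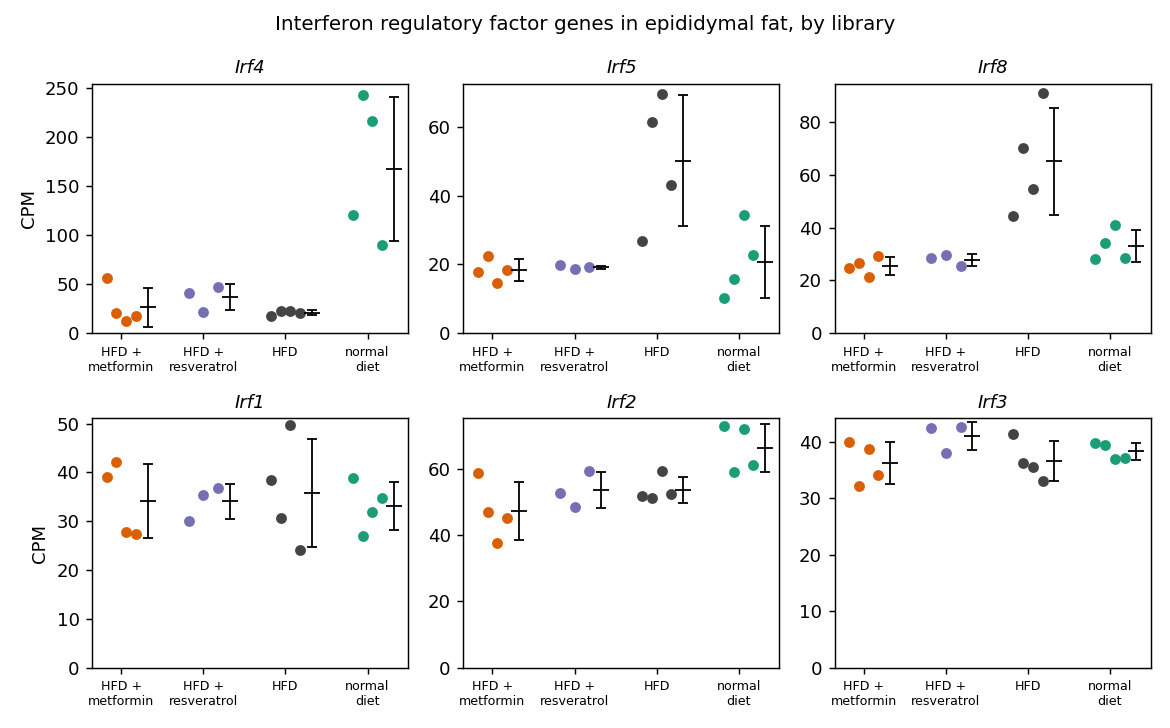
Levels of the 6 genes in CPM (y axis, from 0) in each of the 15 libraries (points), by group along the x axis, with the group mean and SD beside them (n = 4, and 3 for resveratrol). Irf4 is between 12.3 and 55.8 CPM in the libraries on the HFD, with or without a drug, and at 89.9 to 243 CPM in the normal diet libraries, while Irf5 and Irf8 are high in HFD libraries.

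Irf4 was not called between metformin-treated and untreated HFD fat. It had 55.8, 12.3 and 17.1 CPM in metformin libraries 1, 2 and 4 and 20.0 CPM in metformin unmatched, against 17.3 to 23 CPM in the HFD libraries. Metformin 1 was above all HFD libraries and the other 3 lay around or below them. The log2 fold change was 0.33 (SE 0.45, edgeR adjusted p = 0.634), and it turned to -0.33 without metformin 1. Against the normal diet, the metformin libraries did not overlap and Irf4 was lower by a log2 fold change of -2.68 (SE 0.47, edgeR adjusted p = 0.0161). That call was lost with all 16 libraries (adjusted p = 0.241), without metformin 4 (0.0527), without metformin unmatched (0.0531) and without both unmatched libraries (0.0603).

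Irf5 and Irf8 were both lower with metformin than on the HFD alone. Irf5 had 17.9, 14.7 and 18.3 CPM in metformin libraries 1, 2 and 4 and 22.4 CPM in metformin unmatched, against 61.4, 69.7, 43.2 and 26.8 CPM in the HFD libraries 1, 2, 3 and unmatched. The groups did not overlap, with a log2 fold change of -1.46 (SE 0.34, edgeR adjusted p = 0.0203). Irf8 had 24.7, 21.4 and 29.2 CPM in metformin libraries 1, 2 and 4 and 26.5 CPM in metformin unmatched, against 44.4 to 91.2 CPM in the HFD libraries. For Irf8 the log2 fold change was -1.36 (SE 0.20, edgeR adjusted p = 0.012), 0.391 times the HFD level. These were 2 of 6 members called, both down, where 13.9% of all tested genes were called and 7.84% of all were called down. The call of Irf8 was kept with each library left out in turn. The call of Irf5 was lost without HFD 1 (adjusted p = 0.0619), HFD 2 (0.063), HFD 3 (0.0504) or metformin 2 (0.0515), with all 16 libraries (0.0879) and with summed genes of motile ciliated epithelium as a covariate (0.0914). Those 15 genes summed to 17, 1286, 521 and 756 CPM in metformin 1, 2, 4 and unmatched, against 18.6 to 20.9 CPM on the HFD.

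Against the normal diet, neither gene was called in metformin-treated fat. The log2 difference of Irf5 was -0.18 with an interval of 2 SE from -0.86 to 0.49, and that of Irf8 was -0.37 with an interval from -0.77 to 0.03. Irf2 had 58.9, 37.7 and 45.3 CPM in metformin libraries 1, 2 and 4 and 47.0 CPM in metformin unmatched, against 59.1 to 72.9 CPM in normal diet fat. All 4 metformin libraries were below the normal diet libraries, metformin 1 by a narrow margin, and the log2 fold change was -0.49 (SE 0.12, edgeR adjusted p = 0.0651, DESeq2 adjusted p = 0.00495). Without metformin 1 it was called (-0.61, edgeR adjusted p = 0.019). Irf4 was the 1 member of 6 called between metformin and the normal diet, where 1.71% of all tested genes were called, 0.901% down.

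With resveratrol, Irf4 had 41.4, 21.8 and 47.2 CPM in libraries 1 to 3, against 17.3 to 23 CPM in the HFD libraries and 89.9 to 243 CPM in the normal diet libraries. Libraries 1 and 3 lay between the HFD and normal diet ranges, and library 2 lay inside the HFD range. The log2 fold change against HFD was 0.82 (SE 0.48, edgeR adjusted p = 0.326), with an interval of 2 SE from -0.13 to 1.78. Against the normal diet it was -2.19 (SE 0.51), which edgeR did not call (adjusted p = 0.125) and DESeq2 did (0.000738). It was also called by edgeR without metformin 1 (0.0418). Resveratrol 4, the library left out, had 1.85 CPM of Irf4, scaled by TMM factors of all 16 libraries.

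Irf8 was lower with resveratrol than on the HFD alone, with 28.4, 29.7 and 25.3 CPM in resveratrol libraries 1 to 3, against 44.4 to 91.2 CPM in the HFD libraries. The groups did not overlap, and the log2 fold change was -1.23 (SE 0.22, edgeR adjusted p = 0.035). Leaving out any one of HFD 1, 2 and 3 or resveratrol 1, 2 and 3 ended this call, with adjusted p from 0.0909 to 0.135. Irf5 had 19.7, 18.8 and 19.1 CPM in resveratrol libraries 1 to 3, against 26.8 to 69.7 CPM in the HFD libraries. These groups did not overlap either, and the log2 fold change of -1.39 (SE 0.38) was not called by edgeR (adjusted p = 0.0551). It was called by DESeq2 (0.00394), without HFD unmatched (0.0119), metformin 2 (0.046), normal diet 1 (0.043) or normal diet 3 (0.0349), and without both unmatched libraries (0.0168). So 1 of 6 members was called with resveratrol, where 4.17% of all tested genes were called, 3.09% down.

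No member was called by edgeR between resveratrol and the normal diet, where 0.148% of all tested genes were called. At an unadjusted p under 0.05 there were 2 members, Irf2 and Irf4, and DESeq2 called 1, Irf4. Irf1 and Irf3 were called in none of these comparisons. Irf1 averaged 34.1 ± 7.64 CPM with metformin (n = 4), 34 ± 3.50 CPM with resveratrol (n = 3) and 35.8 ± 11 CPM on the HFD (n = 4). Irf3 averaged 36.2 ± 3.69 CPM with metformin, 41 ± 2.55 CPM with resveratrol and 36.5 ± 3.55 CPM on the HFD.

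The drugs were also set against each other. No member was called between metformin and resveratrol by edgeR, at an unadjusted p under 0.05 or by DESeq2, and 0.0114% of all tested genes were called by edgeR. The log2 difference was -0.49 for Irf4 (2 SE from -1.45 to 0.46), -0.07 for Irf5 (-0.79 to 0.66) and -0.13 for Irf8 (-0.56 to 0.30). The drugs were therefore not shown to differ on these genes, nor to act alike within narrower limits than these intervals.

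**Figure D2:**
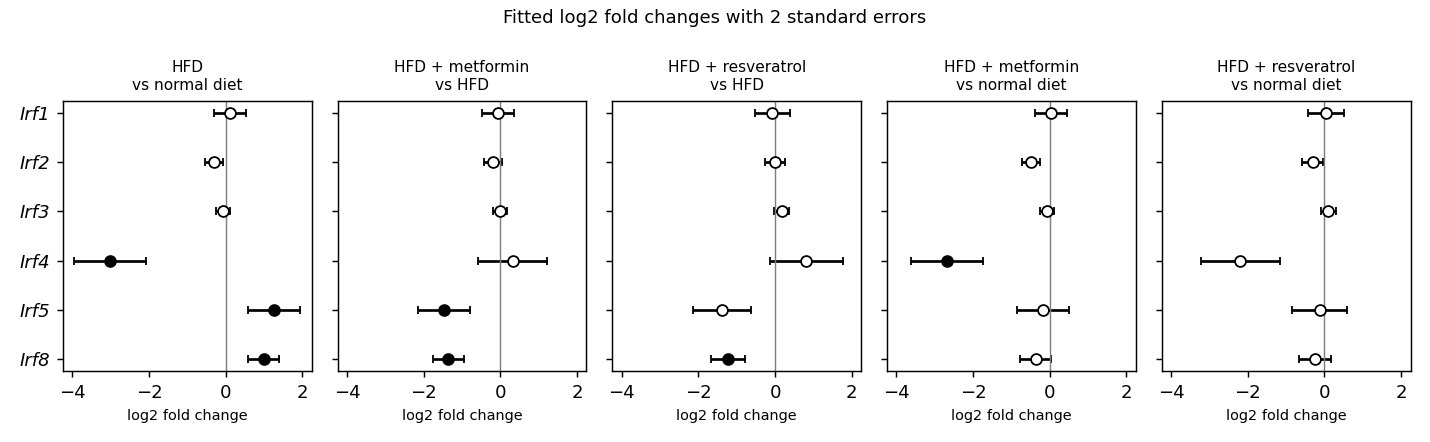
Fitted log2 fold changes (x axis) of the 6 genes (rows) in 5 comparisons, with bars of 2 standard errors, filled where the edgeR adjusted p is under 0.05. Irf4 is at -3.01 for HFD and -2.68 for metformin against the normal diet. Irf5 and Irf8 change sides between the diet comparison and those of the drugs against the HFD, which share the HFD libraries.

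Markers of macrophages, and sums of some other lists, moved with Irf5 and Irf8. The summed level of 12 macrophage markers was 1159 to 1812 CPM with metformin, 1536 to 1742 CPM with resveratrol, 3833, 4085 and 4349 CPM in HFD 1, 2 and 3, 1949 CPM in HFD unmatched, and 1427 to 2336 CPM on the normal diet. HFD unmatched, the HFD library with the lowest Irf5 and Irf8, was thus also the one whose macrophage sum lay in the normal diet range. Of 13 marker entries (Itgam has 2 gene IDs), 8 were called up on the HFD, 10 were called down with metformin and 6 with resveratrol. Of all tested genes, 13.8% were called up and 9.34% down on the HFD, and 7.84% down with metformin and 3.09% with resveratrol. With all 16 libraries 2 of the 8, 1 of the 10 and 3 of the 6 calls were kept, and with the ciliated genes as a covariate 2 of the 10. Without any one of HFD 1, 2 and 3 or resveratrol 1, 2 and 3, 0 of the 6 calls with resveratrol were kept, that of Adgre1 included. Adgre1, which encodes the macrophage surface protein F4/80, had a log2 fold change of 1.92 for HFD against normal diet (edgeR adjusted p = 0.00234), -2.0 for metformin against HFD (0.012) and -1.98 for resveratrol against HFD (0.036). Itgax, which encodes CD11c, had -3.24 with metformin (edgeR adjusted p = 0.0145) and -3.75 with resveratrol (0.036) against HFD, and 3.77 for HFD against normal diet (0.00295). The 7 markers of lipid-associated macrophages other than Lpl summed to 282 to 504 CPM with metformin, 295 to 418 CPM with resveratrol, 2538 to 3255 CPM in HFD 1 to 3, 525 CPM in HFD unmatched and 247 to 724 CPM on the normal diet. With Lpl, 5 of those 8 were called up on the HFD and 5 down with each drug, and 0 of the 5 calls with resveratrol, Itgax among them, were kept without any one of the same 6 libraries. The 7 fibroblast and preadipocyte markers summed to 2668 to 4381 CPM with metformin, 2816 to 3862 CPM with resveratrol, 6410, 6466 and 6736 CPM in HFD 1, 2 and 3, 3512 CPM in HFD unmatched and 2613 to 5036 CPM on the normal diet, with Col3a1 called up and Dcn and Pdgfra down on the HFD and 0 called by edgeR with either drug against the HFD. The 5 mesothelial markers summed to 24.5 to 58.5 CPM in HFD 1 to 3 and 257 CPM in HFD unmatched, against 100 to 177 CPM on the normal diet, with 0 called by edgeR. The part of these cell types in the levels of Irf5 and Irf8 was not tested.

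The 6 markers of type 1 conventional dendritic cells, which need IRF8 to develop, summed to 84.2 to 118 CPM with metformin, 64.1 to 89.9 CPM with resveratrol, 103 to 198 CPM on the HFD and 69.1 to 130.3 CPM on the normal diet, with 1 of 6 called up on the HFD and 1 called down with each drug. For this list and the plasma cell markers below, the shares over all tested genes were 13.8% up on the HFD, 7.84% down with metformin and 3.09% down with resveratrol. The 1 of 6 up on the HFD was near the share over all genes. The 8 fat cell markers overlapped in all 4 groups, at 23410 to 27712 CPM on the HFD against 17220 to 28208 CPM on the normal diet. Irf4 had its lowest level of the 15 libraries, 12.3 CPM, in metformin 2, which also stood apart in other markers: its fat cell markers summed to 13075 CPM, the lowest of the 15, and its spermatogenic cell markers to 1399 CPM, against at most 26.3 CPM in the others. The 8 B cell markers summed to 10.8 to 22.1 CPM with metformin, 2.68 to 16.8 CPM with resveratrol, 5.02 to 9.36 CPM on the HFD and 5.90 to 7.19 CPM on the normal diet. Of these, 0 were called by edgeR between the diets, and Pax5 was called up with metformin against the HFD (log2 fold change 2.56, edgeR adjusted p = 0.0287), a call lost with all 16 libraries, with the ciliated covariate and without HFD 1, 2 or 3 or metformin 2. The highest B cell sum, 22.1 CPM, was in metformin 1, the metformin library with the highest Irf4. Resveratrol went the other way: the sum was 2.68 CPM in resveratrol 3, with the highest Irf4 of its group (47.2 CPM). It was 16.8 CPM in resveratrol 2, with the lowest (21.8 CPM). The normal diet libraries, with 89.9 to 243 CPM of Irf4, had the low sums given above. The 6 plasma cell markers summed to 174 to 301 CPM with metformin, 248 to 288 CPM with resveratrol, 269.8 to 318 CPM on the HFD and 239 to 303 CPM on the normal diet. Of the 5 tested, Prdm1 (1.62, edgeR adjusted p = 0.000477) and Sdc1 (1.03, 0.0329) were called up on the HFD. Against the HFD, Prdm1 (-1.25) and Sdc1 (-1.29) were called down and Mzb1 up (3.72) with metformin, and Prdm1 was called down with resveratrol (-1.30), as log2 fold changes. Of the 3 plasma cell calls with metformin 1 was kept with all 16 libraries, with the covariate and without HFD 1, 2 or 3 or metformin 2, and the 1 with resveratrol was lost without any one of HFD 1, 2 and 3 or resveratrol 1, 2 and 3. The part of these cells in the level of Irf4 was not tested.

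**Figure D3:**
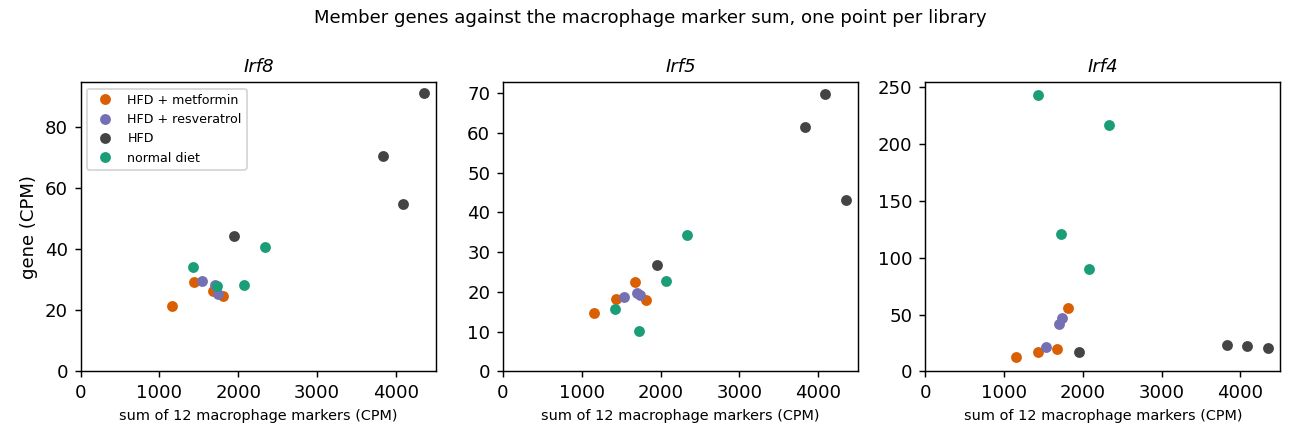
Levels of Irf8, Irf5 and Irf4 in CPM (y axes, from 0) against the summed CPM of 12 macrophage markers (x axis, from 0), with 1 point per library coloured by group. HFD libraries 1 to 3 lie at 3833 CPM or more of the macrophage sum with high Irf8 and Irf5, while their Irf4 is 20.3 to 23 CPM.

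Per length, the order of the 6 genes changed with diet, on the scale of CPM per kilobase of transcript. This scale adds up over transcripts, so the order depends on how counts were assigned to transcripts of different length. For Irf3, transcripts of 629 and 869 bases held 13.3% to 23.3% and 11.4% to 20.9% of the counts, and short lengths raise a level. The order under another length was not tested. On the HFD the medians were 37.4 for Irf3, 28.5 for Irf8, 28.1 for Irf2, 27.4 for Irf5, 21.8 for Irf1 and 4.81 for Irf4. Irf3 (32.9 to 42.6) overlapped Irf8 (18.3 to 35.3) and Irf5 (14.1 to 34), Irf8, Irf2 and Irf5 overlapped each other, and Irf1 reached into their ranges, while Irf4 (3.79 to 5.25) stood below all of them. On the normal diet the medians were 41.1 for Irf3, 37.2 for Irf2, 37 for Irf4, 20.2 for Irf1, 12.4 for Irf8 and 10.2 for Irf5. The range of Irf4 (19.6 to 54.9) overlapped those of Irf3 (39.9 to 43.9), Irf2 (32.4 to 39.6) and Irf1 (15.8 to 24.5), which did not overlap each other. The ranges of Irf8, Irf5 and Irf1 overlapped. With metformin and with resveratrol, Irf3, Irf2 and Irf1 had the 3 highest medians, Irf8 and Irf5 followed, and Irf4 was last at 4.17 and 9.01.

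The gene totals hide a split between annotated transcripts that differed from library to library. Irf8 is annotated at chr8:120736358-120756694 with 6 transcripts in the deposited table. In 11 of the 15 libraries ENSMUST00000047737, which starts at the first base of the gene, held 60.2% to 80.4% of the Irf8 counts. In the other 4, HFD 2 and metformin 1, 2 and unmatched, it was listed at 0, and ENSMUST00000162001, which starts 3' of it at 120738639, held 60.8%, 49.6%, 62.4% and 54.2%. In the 11 libraries ENSMUST00000162001 held 0.937% to 2.36%. RefSeq has start sites at both places, and the 2 promoters are printed because they are the places between which the assignment moved, with GAS sites in capitals.
Irf8 upstream start, chr8:120736108-120736407: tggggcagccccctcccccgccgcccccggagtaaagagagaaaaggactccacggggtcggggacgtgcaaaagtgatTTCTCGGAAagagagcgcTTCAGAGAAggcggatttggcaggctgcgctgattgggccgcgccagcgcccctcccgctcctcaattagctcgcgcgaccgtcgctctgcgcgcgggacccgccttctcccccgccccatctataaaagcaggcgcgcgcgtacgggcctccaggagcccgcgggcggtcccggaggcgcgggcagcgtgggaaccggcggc
Irf8 downstream start, chr8:120738389-120738688: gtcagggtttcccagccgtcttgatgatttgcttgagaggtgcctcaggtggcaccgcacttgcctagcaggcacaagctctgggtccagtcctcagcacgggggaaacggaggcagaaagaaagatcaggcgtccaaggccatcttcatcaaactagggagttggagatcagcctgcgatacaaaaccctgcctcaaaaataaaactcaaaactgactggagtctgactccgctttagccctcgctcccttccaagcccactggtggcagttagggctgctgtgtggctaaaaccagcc
The GAS matches stand before the upstream start only. ENSMUST00000162775, a longer transcript that starts beside the upstream site, kept 14.2% to 28.3% in every library of the fit. The upstream transcript was thus at 0 in 3 of 4 metformin libraries, 0 of 3 resveratrol libraries, 1 of 4 HFD libraries and 0 of 4 normal diet libraries. The shares were not tested between groups. The gene test used the sum over transcripts, and whether the split altered that sum was not tested. The 3 metformin libraries at 0 had 21.4 to 26.5 CPM of Irf8, against 29.2 CPM in metformin 4. HFD 2 had 54.7 CPM, against 70.4, 91.2 and 44.4 CPM in HFD 1, 3 and unmatched.

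Irf5, at chr6:29526625-29541871, showed the same kind of split among 3 transcripts. ENSMUST00000004392 held 1.45% to 94.8% of its counts and ENSMUST00000163511 held 1.52% to 70.1%. ENSMUST00000167252 was listed at 0 in 7 libraries, but held 69.9% in normal diet 1 and 43.3% in HFD 3. The level of a single Irf5 or Irf8 transcript was therefore not compared between groups.

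**Figure D4:**
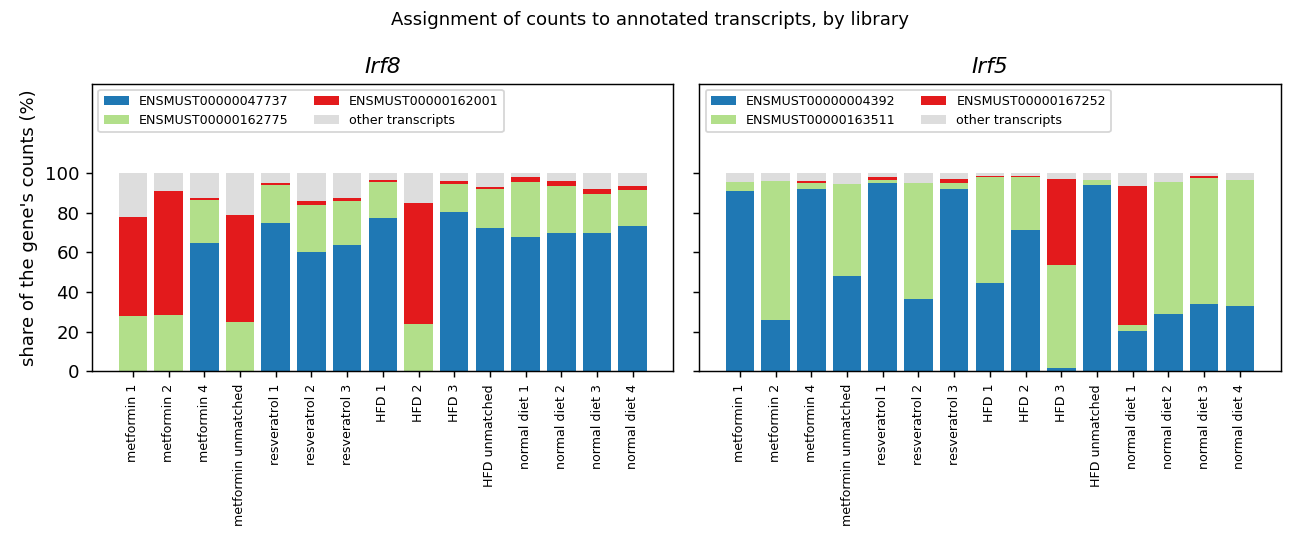
Share of the counts of Irf8 and Irf5 (y axis, percent of the gene's counts) assigned to each of 3 transcripts and to all others, in the 15 libraries along the x axis. ENSMUST00000047737 of Irf8 is at 0 in HFD 2 and in 3 metformin libraries, where ENSMUST00000162001 holds 49.6% to 62.4%.

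Irf4, at chr13:30749226-30766976, has 3 transcripts in the table. The long ones, of 4764 and 4761 bases, held 34.7% to 86.6% and 12.9% to 65.0% of its counts, and the sum over them is what is given above. Its RefSeq promoter, printed as the start of the member with the largest change, holds none of the 4 motifs searched.
Irf4, chr13:30748983-30749282: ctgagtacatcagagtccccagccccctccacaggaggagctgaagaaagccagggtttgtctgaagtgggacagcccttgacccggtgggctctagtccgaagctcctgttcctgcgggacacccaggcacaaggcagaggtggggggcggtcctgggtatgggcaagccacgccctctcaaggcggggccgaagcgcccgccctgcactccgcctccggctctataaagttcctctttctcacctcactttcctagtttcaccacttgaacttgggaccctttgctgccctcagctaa

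Of the genes known to act with IRF4 in mouse fat cells, Ppargc1a alone was called between the diets, and it was lower on the HFD. It was 1 of 4 tested, or 25%, near the 23.1% of all tested genes called in either direction, with 9.34% called down. With metformin against the HFD 25% were called as well, against 13.9% of all tested genes. Ppargc1a, which encodes the coactivator PGC-1alpha, had 4.11, 2.82 and 5.43 CPM in HFD libraries 1 to 3 and 4.83 CPM in HFD unmatched, against 14.6, 21.7, 12.9 and 8.69 CPM in normal diet libraries. The groups did not overlap, and the log2 fold change was -1.75 (SE 0.37, edgeR adjusted p = 0.00588). Unlike Irf4, Ppargc1a was called up with metformin, at 7.77, 15.2 and 17.0 CPM in libraries 1, 2 and 4 and 16.4 CPM in metformin unmatched (log2 fold change against HFD 1.71, SE 0.37, edgeR adjusted p = 0.0163). With the ciliated genes as a covariate this log2 fold change was 0.90 and the call was lost (adjusted p = 0.0642), as it was without HFD 1 (0.0529) or HFD 2 (0.0555). The 3 metformin libraries with high Ppargc1a were those with 521 to 1286 CPM of ciliated genes. Normal diet 2 and resveratrol 2, with 978 and 592 CPM of ciliated genes, also had the highest Ppargc1a of their groups, 21.7 and 17.2 CPM. The other libraries of these groups had 15.3 to 31.3 CPM of ciliated genes. The part of the ciliated genes was not tested beyond that covariate. Whether these drug effects on Irf4 and Ppargc1a differ was not tested. Foxo1 and the lipase genes Pnpla2 (ATGL) and Lipe (hormone-sensitive lipase) were called in none of the 5 comparisons. On the HFD against the normal diet their log2 differences were 0.06, -0.54 and -0.04, and Pnpla2 averaged 1269 CPM on the HFD and 1850 CPM on the normal diet. Of the 5 genes of this list, Ucp1 had too few counts to be tested.

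Across the 15 libraries, the levels of some genes correlated with that of Irf4. Among genes with a mean of 5 CPM or more, those with the highest Pearson correlation of log2 CPM with Irf4 included Dapk1 (r = 0.95), Ccnl1 (0.93), Fbxo31 (0.91) and Sgk1 (0.91), with Spearman values from 0.77 to 0.90. These points share their libraries and groups, so this is a description, and the normal diet libraries lie apart from the rest. Within the normal diet, Irf4 ran from 89.9 to 243 CPM but Dapk1 only from 231 to 252 CPM. Fbxo31 had 119 CPM in normal diet 1 and 105 and 102 CPM in normal diet 2 and 3, where Irf4 was higher. Among the drug libraries, Dapk1 was highest in metformin 1 (183 CPM) and resveratrol 3 (212 CPM) of their groups, as was Irf4. Ccnl1, which encodes cyclin L1, had 56.7, 64.1 and 53.7 CPM in HFD libraries 1 to 3 and 54.7 CPM in HFD unmatched, against 93.1, 84.3, 95.9 and 79.6 CPM in normal diet libraries 1 to 4. With metformin it had 74.6, 56.2 and 62.8 CPM in libraries 1, 2 and 4 and 58.4 CPM in metformin unmatched, and with resveratrol 66.3, 61.6 and 79.1 CPM. Like Irf4, it was highest among the metformin libraries in metformin 1. Sgk1, a kinase gene induced by glucocorticoids, averaged 112 CPM on the HFD and 219.8 CPM on the normal diet. Dapk1, which encodes a death-associated kinase, averaged 142 CPM on the HFD and 244 CPM on the normal diet.

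The 5 lowest correlations with Irf4 were those of Tdrd7 (r = -0.92), Unc79 (-0.91), Ubap2 (-0.91), Coq7 (-0.90) and Gm4912 (-0.90). Unc79, a subunit of the NALCN sodium leak channel, had 21.6, 14.1 and 20.8 CPM in HFD libraries 1 to 3 and 24.4 CPM in HFD unmatched, against 2.46, 2.13, 2.79 and 3.23 CPM in normal diet libraries. The log2 fold change was 2.93 (edgeR adjusted p = 9.02e-05), and its level was 13.2 to 27.6 CPM with metformin and 10.4 to 17.6 CPM with resveratrol. Unc79 was picked for its correlation with Irf4, which differed between the diets in these same libraries. The choice thus favoured a diet difference, and this p-value is no separate result. The genes most like Irf5 were Hpcal1 (r = 0.96), Coro1c (0.95) and Ifnar1 (0.95), and those most like Irf8 were Rpl35 (0.96) and the immune receptor adaptor genes Tyrobp (0.94) and Fcer1g (0.94). For Irf2 they were St3gal1 (0.94), Npc1 (0.90) and Ncoa3 (0.90), for Irf3 Pcdhgb5 (0.89), Cherp (0.87) and Tmtc2 (0.86), and for Irf1, with the lowest values, Rinl (0.74), Inpp4a (0.74) and Tor3a (0.72).

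**Figure D5:**
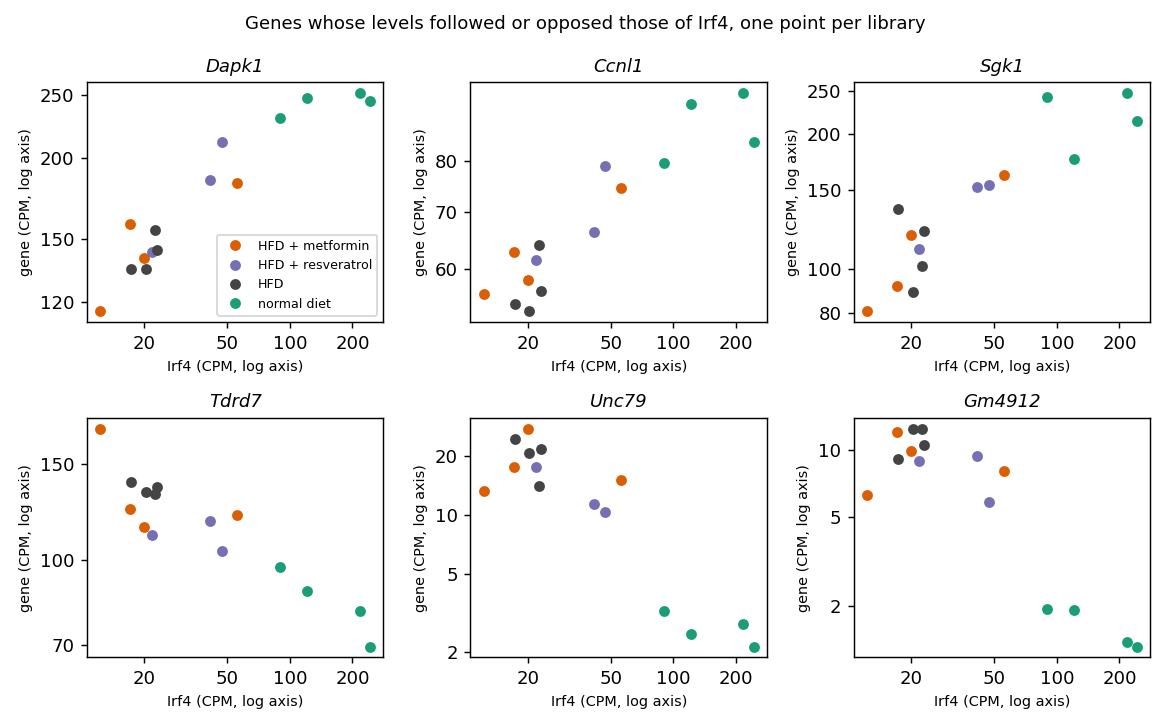
Levels of 3 genes with high and 3 with low correlation with Irf4 (y axes, CPM, log scale) against Irf4 (x axis, CPM, log scale), with 1 point per library coloured by group. The 4 normal diet libraries lie at Irf4 of 89.9 CPM or more, with Ccnl1 at 79.6 CPM or more and Unc79 at 3.23 CPM or less.

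The DNA-binding partners of IRF4 and IRF8 were read next. Spi1, which encodes PU.1, had 50.2, 61.4 and 65.3 CPM in HFD libraries 1 to 3 and 18.7 CPM in HFD unmatched, against 12.0, 12.6, 28.6 and 13.6 CPM in normal diet libraries. HFD unmatched was again inside the normal diet range. The log2 fold change was 1.55 for HFD against normal diet (edgeR adjusted p = 0.00929), -2.0 for metformin against HFD (0.012) and -1.83 for resveratrol against HFD (0.0365). Ikzf1 (Ikaros) was called in the same 3 comparisons, at 1.05, -0.82 and -0.93 (edgeR adjusted p = 0.00209, 0.017 and 0.0365). Batf was called with metformin alone (-1.0, edgeR adjusted p = 0.0371), and its means were 1.17 CPM with metformin and 2.35 CPM on the HFD. The counts over the 7 partners were 2 up on the HFD, 3 down with metformin and 2 down with resveratrol, and 0 against the normal diet by edgeR for either drug. The first 3 counts were 28.6%, 42.9% and 28.6% of the list, against 13.8%, 7.84% and 3.09% of all tested genes called in the same direction. Their median log2 fold change was 0.67 on the HFD, -0.53 with metformin and -0.59 with resveratrol, where the medians over all genes were -0.04, 0.04 and 0.04.

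Of the interferon receptor genes, Ifnar1, Ifnar2, Ifngr2 and Il10rb were called up on the HFD and down with metformin, 4 of 6 tested in each. Both comparisons use the same HFD libraries, so these are not separate results. That was 66.7% in each, against 13.8% of all tested genes up on the HFD and 7.84% down with metformin. With resveratrol 33.3% were called down, against 3.09% of all tested genes. Ifngr2, a subunit of the interferon-gamma receptor, averaged 38.9 CPM with metformin, 41.7 CPM with resveratrol, 63.9 CPM on the HFD and 35.7 CPM on the normal diet. Its log2 fold change was 0.84 on the HFD (edgeR adjusted p = 0.00102), -0.71 with metformin (0.012) and -0.61 with resveratrol (0.0367). Ifnar1, a subunit of the type I interferon receptor, had 0.52, -0.53 and -0.51 in the same comparisons (edgeR adjusted p = 0.00541, 0.0131 and 0.0372). Ifngr1, the partner subunit of Ifngr2, was called in none, at 275 CPM on the HFD and 295 CPM on the normal diet. Of 8 genes of JAK-STAT signalling, Jak1 and Tyk2 were called up on the HFD (log2 fold changes 0.38 and 0.48) and down with metformin (-0.41 and -0.51). These were 25% of the list in each. On the HFD 13.8% of all tested genes were called up and 23.1% in either direction, and with metformin 7.84% were called down. The median over the 8 was 0.10 on the HFD and 0.03 with metformin, where all genes had -0.04 and 0.04. None of the 8 was called with resveratrol by edgeR.

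Among 22 sensors and kinases upstream of IRF3, IRF5 and IRF7, 3 were called up and 1 down on the HFD, 18.2% of the list against 23.1% of all tested genes, so the share was no higher than over all genes. The 3 were Tlr8, Ikbke and Irak4, with log2 fold changes of 1.79, 0.77 and 0.61, and the 1 was Ikbkb at -0.25, the kinase that phosphorylates IRF5. Metformin had 7 called down (31.8%, against 7.84% of all tested genes) and 0 up, and resveratrol had 1 down, Tlr8 at -2.24 (edgeR adjusted p = 0.035). Tlr8 averaged 13.6 CPM with metformin, 10.6 CPM with resveratrol, 49.8 CPM on the HFD and 14.4 CPM on the normal diet. The median over the 22 was 0.32 on the HFD and -0.28 with metformin.

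Interferon-stimulated genes, the common targets of the IRFs, were called up on the HFD in 11 of 37 (29.7%, against 13.8% of all tested genes), with 35 of 37 fitted above 0 and a median log2 fold change of 0.41. Against the normal diet, 33 of 37 were above 0 with metformin (median 0.30) and 34 with resveratrol (median 0.31), with 1 and 0 called by edgeR. The 1 was 2.7% of the list, against 1.71% of all tested genes. Over all genes the medians were -0.04 on the HFD, 0.03 with metformin and -0.02 with resveratrol, each against the normal diet. These comparisons share the normal diet libraries, so their like directions are not separate results. Ciita, Gbp5 and Ifit3b had the lowest adjusted p, with log2 fold changes of 1.26, 1.07 and 1.34 (edgeR adjusted p = 0.000899, 0.00209 and 0.00228). Metformin had 3 called down, Ciita (-1.05), Oas1a (-0.82) and Psmb8 (-0.50), and resveratrol 1, Ciita (-1.12, edgeR adjusted p = 0.036). These were 8.11% and 2.70% of the list, near the 7.84% and 3.09% of all tested genes called down. Ciita, the activator of antigen-presenting MHC class II genes and a known target of IRF1 and IRF8, had 73.1, 81.5, 72.4 and 47.0 CPM in HFD libraries 1, 2, 3 and unmatched, against 28.3, 27.9, 34.8 and 23.2 CPM in normal diet libraries. Gbp5 was not called with metformin against the HFD, with means of 19.2 CPM with metformin, 21.6 CPM on the HFD and 10.3 CPM on the normal diet, and was the 1 of 37 called between metformin and the normal diet (log2 fold change 0.91, edgeR adjusted p = 0.0304). That call was lost with all 16 libraries (0.424), without both unmatched libraries (0.0919), without filter (0.0508) and with 1 of 6 single libraries left out (0.0526 to 0.0932). The macrophage sums above moved with the partner, receptor and sensor lists as well, and their part was not tested.

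Of the family members outside the 6, Irf7 and Irf9 were called in none of the 5 comparisons. Irf7, the amplifier of type I interferon production, averaged 11.8 ± 2.07 CPM on the HFD and 14 ± 1.87 CPM on the normal diet (SD, n = 4 each). The 3 genes for IRF2-binding cofactors, Irf2bp1, Irf2bp2 and Irf2bpl, were called in none of the 5 comparisons, by the edgeR test.

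Many of the list calls were lost when a single library was left out, as were many calls over all genes. Without HFD 1, 2 or 3, 542, 595 and 469 of all tested genes were called with metformin against HFD, against 2442. With resveratrol against HFD, 1 or 2 were called without any one of HFD 1, 2 and 3 or resveratrol 1, 2 and 3, against 732. Counting Ppargc1a, the partners, receptors, signalling genes, sensors and interferon-stimulated genes together, 24 were called on the HFD against the normal diet, and 17 to 24 of them were kept with each library left out in turn and 10 with all 16 libraries. Of the 20 called with metformin against the HFD, 6, 8 and 8 were kept without HFD 1, 2 and 3, 11 without metformin 2, 4 with all 16 libraries, and 1, Ciita, with the ciliated genes as a covariate. Of the 6 called with resveratrol (Ciita, Ifnar1, Ifngr2, Ikzf1, Spi1 and Tlr8), 0 were kept when any one of HFD 1, 2 and 3 or resveratrol 1, 2 and 3 was left out, with edgeR adjusted p from 0.0909 to 0.143 and the same direction throughout, and 3 with all 16 libraries.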

How the data were processed

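RNA of epididymal fat was sequenced in 16 libraries of 4 groups. The authors deposited whole-number counts per transcript with FPKM values beside them, per the file headers, and fastp, HISAT2 and the build GRCm38 are listed in the submitters' processing notes. For the counting tool, annotation release and strand setting nothing is stated, and overlapping or antisense genes may therefore share reads that cannot be separated. The deposited FPKM and transcript lengths (in bases) were used to check that header names and count columns belong together: the totals differed by at most 0.0418%, against 0.489% or more with another library's column. A further 4 columns of per-sample values were not used.

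Transcript counts were summed by gene ID (91879 transcripts, 27150 genes, 5 broken records rejoined). With edgeR 4.0.16 (R 4.3.3), genes were kept by filterByExpr and fitted in 1 robust quasi-likelihood model of 15 libraries with TMM factors, with Benjamini-Hochberg adjustment over 17535 genes. Per-length levels add count per kilobase over transcripts. Correlations used log2 CPM with a prior count of 2. The test was checked on simulated counts. Figures were drawn with matplotlib 3.10.9. The alternatives were DESeq2 1.42.0, RLE size factors, no filter on low counts, all 16 libraries, no unmatched libraries, a covariate for ciliated epithelium genes, and each library left out. The contrast between the drugs, the transcript shares, the promoter motifs and the windows for lncRNAs were added after the tables had been seen.

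The 6 genes and the gene lists were chosen with earlier results of these data known. Besides the 6, the text names genes of the pathway lists that were called, or the 3 with the lowest adjusted p where none or more than 4 were, with some of these given by count, and the genes with the highest or lowest correlation. Some genes that these rules cover are not reported here, and list counts leave them out. Libraries carry an animal code each, nothing else says that they are separate animals, and p-values measure the spread between them. In these codes HFD 1, 2 and 3 share a first number, as do some libraries of each other group, and HFD unmatched has another. What that number means is not stated. Between the counts of HFD 1, 2 and 3, chi-square per degree of freedom was 12.6 to 17.5. Against HFD unmatched it was 51.5 to 75.3, and for pairs in the other groups 24.6 or more. The tests took all libraries as independent.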

Additional observations from a re-analysis of the deposited data

Results flagged for a closer look

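In 18 groups of 4 libraries (the 6 genes in the metformin, HFD and normal diet groups), the gap between the most extreme library and its nearest neighbour was set against the group's range, and compared with Dixon's 95% critical value for 4 samples. Chance flags about 5% of such groups. A single one passed: Irf2 in HFD 2, at 59.4 CPM, stood above 51.2 to 52.5 CPM in the other HFD libraries, with a gap of 0.833 of the range.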

How the results depend on the processing

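The number of genes called across the transcriptome moved with the processing, while the calls of Irf4 and Irf8 between the diets and of Irf8 with metformin stood under every alternative run. Against 4050 genes called for HFD against normal diet, 2442 for metformin against HFD, 732 for resveratrol against HFD, 299 for metformin and 26 for resveratrol against the normal diet, DESeq2 called 4388 (metformin against HFD), 2137 (resveratrol against HFD), 1128 and 420 (each drug against the normal diet). With all 16 libraries the counts were 1531, 179, 395, 1 and 0. With the ciliated epithelium covariate, 343 genes were called for metformin against HFD, 1358 for resveratrol against HFD and 89 for resveratrol against the normal diet. With no filter on low counts, 1541, 351 and 15 were called in those 3 comparisons. Without both unmatched libraries, 1855 were called for resveratrol against HFD, 131 for metformin and 8 for resveratrol against the normal diet. For metformin against HFD, the split was 1068 up and 1374 down, against 457 up and 1084 down with no filter, 2345 up and 2043 down with DESeq2, and 32 up and 147 down with all 16 libraries. With each library left out in turn, the counts were 2722 to 4979 for HFD against normal diet, 469 (without HFD 3) to 3710 (without metformin 1) for metformin against HFD, 1 (without HFD 2) to 2066 (without HFD unmatched) for resveratrol against HFD, 91 (without normal diet 3) to 423 (without metformin 2) for metformin and 6 (without normal diet 1) to 120 (without metformin 2) for resveratrol against the normal diet. Of the 6 members, the counts were 3, 2, 1, 1 and 0 in the same order of comparisons. With all 16 libraries 1 was called for metformin against HFD and 0 for metformin against the normal diet, with the covariate 1 for metformin against HFD, and without both unmatched libraries 2 for resveratrol against HFD and 0 for metformin against the normal diet. DESeq2 called 2 for resveratrol against HFD, 2 for metformin and 1 for resveratrol against the normal diet. With each library left out, the ranges were 2 to 4, 1 to 2, 0 to 2, 0 to 2 and 0 to 1. Changes of sign were limited to values that were not called. For Irf1 the log2 fold change was 0.08 for metformin against HFD with the covariate (otherwise -0.07), -0.20 for resveratrol against the normal diet with all 16 libraries (otherwise 0.04), and, without both unmatched libraries, -0.12 for metformin against resveratrol and -0.08 for metformin against the normal diet. With the covariate it was 0.02 for Irf2 and 0.05 for Irf3 in metformin against HFD and 0.08 for Irf2 in resveratrol against HFD. The values of Irf3 for metformin against HFD and of Irf2 for resveratrol against HFD were 0.00 with RLE size factors and with DESeq2, and that of Irf3 was 0.11 without both unmatched libraries. Irf5 was 0.21 for metformin against resveratrol with all 16 libraries. With each library left out, Irf1 ran from -0.09 to 0.25 for HFD against normal diet, -0.21 to 0.14 for each drug against HFD, -0.08 to 0.13 for metformin and -0.05 to 0.13 for resveratrol against the normal diet, and -0.12 to 0.09 between the drugs. Irf2 ran from -0.07 to 0.06 for resveratrol against HFD, Irf3 from -0.05 to 0.07 and Irf4 from -0.33 to 0.56 for metformin against HFD. Irf5 ran from -0.40 to 0.17 for metformin and -0.33 to 0.24 for resveratrol against the normal diet, both positive without normal diet 3, and from -0.18 to 0.02 between the drugs. Irf2 was called for HFD against normal diet by DESeq2 (adjusted p = 0.0468), with the covariate (0.00987) and without metformin 1 (0.037), and for metformin against the normal diet by DESeq2 (0.00495) and without metformin 1 (0.019). Of 945 alternative values of the called list genes that the naming rules cover, which leave out some called genes, 759 kept the call and its direction and 186 lost the call. The cause of these changes was not tested. No paired analysis was possible because the replicate numbers follow the order of the samples and the codes of the count columns pair no libraries between groups. With 3 or 4 libraries a group, an uncalled difference is limited only by its interval.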

Other observations

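The table of long non-coding RNAs held 1 transcript inside the Irf4 gene, NONMMUT016858.2 at chr13:30764958-30766831, near the 3' end. It had 2, 3 and 1 counts in HFD libraries 1 to 3 and 4 in HFD unmatched, against 1, 44, 17 and 7 counts in normal diet libraries 1 to 4. With metformin it had 10, 1 and 4 counts in libraries 1, 2 and 4 and 0 in metformin unmatched, and with resveratrol 3, 4 and 3 counts. The groups overlapped. Because the strand setting is not given, reads of Irf4 and of this transcript could not be told apart. Irf4 itself was counted within the messenger RNA table alone.

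Beside Irf2, NONMMUT152691.1 (chr8:46725827-46739515) ended within 5000 bases of the gene and held 1730 counts in the 15 libraries together, from 78 to 185 in each. The other 12 long non-coding RNAs within 5000 bases of a member held 7 to 331 counts in all.

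Resveratrol replicate 4, the library left out, had lower levels of 5 of the 6 members than all 3 resveratrol libraries of the fit: 12.9 CPM of Irf1, 28.3 of Irf2, 1.85 of Irf4, 5.68 of Irf5 and 19.4 of Irf8, and 39.5 CPM of Irf3. Its 12 macrophage markers summed to 391 CPM. The CPM of this library used TMM factors of all 16 libraries, and those of the others used factors of the 15 libraries in the fit. The scales may therefore differ.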
